A study of Homo sapiens with 12 samples.

Results

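The T lineage surface markers described here are 10 genes of cell surface proteins used to recognise and stage T cells: CD2, CD4, CD5, CD6, CD7, CD27, CD28, CD38, CD69 and CD99. They were taken by gene name from an expression table of 60671 genes, and each name matched 1 row. RNA was sequenced from cells labelled Jurkat, a human T cell acute lymphoblastic leukemia (ALL) line, in 4 groups of 3 libraries. NC+DMSO and NC+VCR were control cells, which the labels call WT and the study's methods describe as carrying the pHIV7-SFFV-GFP vector. PTPN21+DMSO and PTPN21+VCR were cells with a lentiviral FLAG-tagged PTPN21 construct driven by the SFFV promoter, which encodes a protein tyrosine phosphatase. Cells were treated for 48 h with vincristine (VCR), a drug that blocks microtubule assembly, or with its solvent DMSO. All 4 groups were thus the same labelled line and, by the methods, all carried a vector, and the VCR dose of these libraries was not given in the sources used here. The methods give 3 replicates per group for sequencing and say in general that experiments were repeated, but no source names separate cultures for these libraries, so p-values measure only the spread between libraries, which may be technical.

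A T cell recognises peptide on another cell through its receptor and the CD3 chains, and the surface proteins around that receptor tune the response. CD4 binds MHC class II and brings the kinase LCK to the receptor, CD2 and CD28 deliver adhesion and costimulation, CD5 and CD6 dampen signalling, and CD7 and CD99 appear early in the lineage and are read in flow cytometry of T cell leukemia. CD27 is a TNF receptor family member that binds CD70, CD38 is an enzyme that consumes NAD, and CD69 appears on the surface soon after activation and keeps the egress receptor S1PR1 from the membrane.

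Values are FPKM, fragment counts divided by gene length and by the size of the library. The table does not state depth, its columns summed to 520098 to 629364 FPKM per library, and Pearson's correlation across the 11591 genes with a mean of at least 1 FPKM was 0.939 to 0.976 between libraries of a group. Of all genes, 53.6% were listed at 0 in all 12 libraries, and so were 24.5% of 19903 protein-coding genes. PTPN21 was 0.0767, 0.0212 and 0.0934 FPKM in NC+DMSO and 0.569, 0.160 and 0.372 in NC+VCR. It was 7.93, 10.5 and 8.02 FPKM in PTPN21+DMSO and 6.53, 6.34 and 4.34 in PTPN21+VCR, so every library with the construct was above every control library.

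The markers split sharply by level. CD69 and CD99 were measured in all 12 libraries, with means of 18.3 and 18.9 FPKM. CD7 was detected in 8 libraries, CD4 in 2 and CD2 in 1, all under 1 FPKM. CD5, CD6, CD27, CD28 and CD38 were listed at 0 in all 12 libraries. Thus 8 of the 10 genes (80%) had a mean under 1 FPKM, against 51.9% of protein-coding genes, and 5 of 10 (50%) were at 0 throughout. Only CD69 and CD99 passed the minimum of a mean of 1 FPKM and could be tested between groups, so no count over the tested genes stands for all 10.

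**Figure D1:**
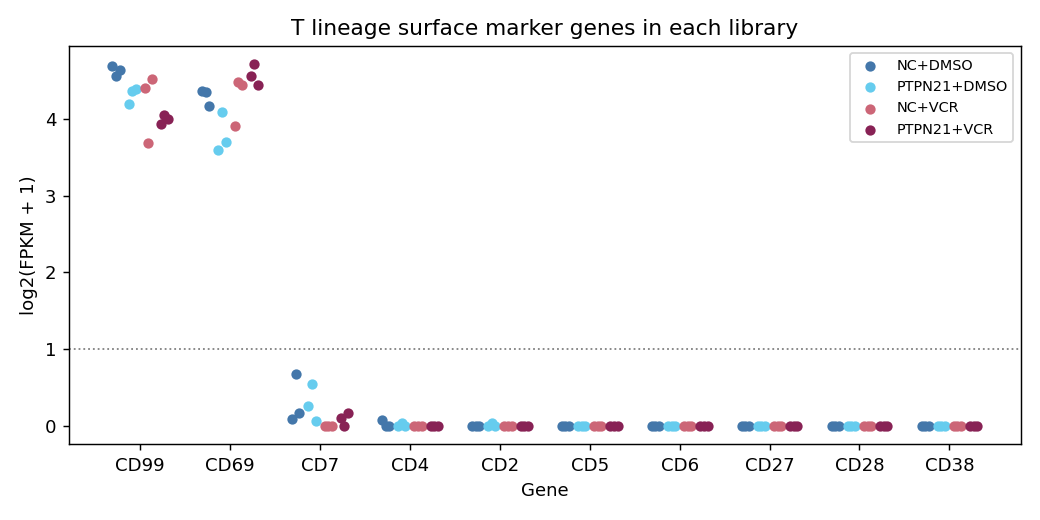
Each of the 10 T lineage surface marker genes (x axis) as log2(FPKM + 1) in each of the 12 libraries (y axis), with 1 point per library coloured by group and a dotted line at 1 FPKM. CD99 and CD69 lie far above the line in every library, CD7 lies below it in the 8 libraries where it was detected, and the other 7 genes lie at or next to 0.

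CD2 and CD4 were each seen in few libraries. CD2 (ENSG00000116824), the adhesion receptor for CD58, lies on chromosome 1 from 116754385 to 116769228 on the plus strand in GRCh38, as GENCODE release 29 places it. It was 0.0287 FPKM in PTPN21+DMSO replicate 2 and 0 in the other 11 libraries. CD4 (ENSG00000010610, chromosome 12, 6786858 to 6820808, plus strand) was 0.0586 FPKM in NC+DMSO replicate 1, 0.0287 in PTPN21+DMSO replicate 2 and 0 in the rest. Both values of CD4 and the value of CD2 came from DMSO libraries, and at such levels a difference between groups could not be measured.

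CD5 (ENSG00000110448, chromosome 11, 61102395 to 61127852, plus strand) and CD6 (ENSG00000013725, chromosome 11, 60971680 to 61020377, plus strand) are scavenger receptor family proteins that neighbour each other, 82018 bases apart. Neither was above 0 in any library. CD28 (ENSG00000178562, chromosome 2, 203706475 to 203738912, plus strand), the receptor for CD80 and CD86, was also at 0 throughout. The same held for CD27 (ENSG00000139193, chromosome 12, 6444867 to 6451718, plus strand), whose ligand CD70 was measured at 0.572 to 3.62 FPKM. CD27 shares its locus with the opposite-strand transcript CD27-AS1, which was listed at 0 to 3.48 FPKM, and with the same-strand gene TAPBPL, at 0 in all libraries. The sources used here do not say whether counting used strand, so reads of the pair cannot be told apart. CD38 (ENSG00000004468, chromosome 4, 15778275 to 15853230, plus strand) was at 0 in all libraries as well.

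CD7 (ENSG00000173762, chromosome 17, 82314868 to 82317602, minus strand), an immunoglobulin family protein of early T cells, was the only low gene seen in several libraries. It was 0.0625, 0.605 and 0.127 FPKM in NC+DMSO and 0.203, 0.460 and 0.0509 FPKM in PTPN21+DMSO. After VCR it was listed at 0 in all 3 NC libraries, and at 0.0731, 0 and 0.130 FPKM in PTPN21+VCR. All 6 DMSO libraries were above 0, against 2 of 6 VCR libraries, but the DMSO values spread from 0.0509 to 0.605 FPKM and the ranges of PTPN21+DMSO and PTPN21+VCR overlapped. Detection also differed over whole libraries. Between 18617 and 20089 genes were above 0 in the NC+DMSO libraries, against 16232 to 18105 in NC+VCR. The range was 19953 to 20329 in PTPN21+DMSO and 18806 to 19630 in PTPN21+VCR. The share of genes with the same pattern of detection as CD7 was not counted. The mean of 0.143 FPKM of CD7 kept it out of the test.

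CD69 (ENSG00000110848, chromosome 12, 9752486 to 9760901, minus strand), a C-type lectin of activated lymphocytes, stood higher than 81.1% to 89.3% of protein-coding genes, depending on the library. CD99 (ENSG00000002586, chromosome X, 2691133 to 2741309, plus strand, in the pseudoautosomal region), an adhesion protein of many cell types, stood higher than 83.0% to 88.4%. Reads of CD99 can be shared with its pseudogene CD99P1, which was listed at 0.362 to 2.72 FPKM, well under the 11.8 to 24.8 FPKM of CD99.

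RefSeq promoters (GRCh38.p14, 250 bases before to 50 after the start) were matched for CD2, CD27, CD28, CD38 and CD99, 5 of the 10. The promoter of CD69, the other measured marker, was not among them, so any contrast with measured markers rests on CD99 alone. The promoter of CD99 held 33 CpG dinucleotides in 300 bases, more than 76.6% of 15141 protein-coding promoters. CD28 held 9, CD2 and CD38 held 4 each and CD27 held 3. The median was 27 over the 7809 promoters of genes with a mean of at least 1 FPKM, 7 over the 3468 of genes at 0 in all libraries and 22 over all. The GC box GGGCGG, searched on both strands, was found in CD99 only of these 5 and in 59.3% of all promoters. The AP-1 motif TGANTCA was found in CD27 only (5.73% of all promoters), and the GATA motif AGATAA in none of the 5 (7.48% of all promoters). The 250 bases before the RefSeq start are shown for CD99, for a gene at 0 and for a gene next to 0, with each CpG in capitals. They show the difference in CpG content between these genes to the eye. RefSeq and GENCODE place the starts of these genes differently, and all the runs shown reach past the GENCODE start given above. The CD27 window lies wholly before its GENCODE start. CD99 is at chrX:2691045-2691294, CD28 at chr2:203706389-203706638 and CD2 at chr1:116754180-116754429, all on the plus strand and written 5′ to 3′.
CD99: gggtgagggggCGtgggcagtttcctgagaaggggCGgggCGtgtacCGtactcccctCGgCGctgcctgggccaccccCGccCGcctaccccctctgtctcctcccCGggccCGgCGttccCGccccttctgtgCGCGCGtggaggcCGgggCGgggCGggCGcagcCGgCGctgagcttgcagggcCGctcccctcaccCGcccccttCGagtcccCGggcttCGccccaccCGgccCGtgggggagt
CD28: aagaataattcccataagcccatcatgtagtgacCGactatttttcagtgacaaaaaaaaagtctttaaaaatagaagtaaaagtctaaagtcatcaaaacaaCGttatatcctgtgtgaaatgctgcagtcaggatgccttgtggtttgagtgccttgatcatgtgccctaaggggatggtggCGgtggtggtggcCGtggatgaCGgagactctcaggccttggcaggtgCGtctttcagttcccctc
CD2: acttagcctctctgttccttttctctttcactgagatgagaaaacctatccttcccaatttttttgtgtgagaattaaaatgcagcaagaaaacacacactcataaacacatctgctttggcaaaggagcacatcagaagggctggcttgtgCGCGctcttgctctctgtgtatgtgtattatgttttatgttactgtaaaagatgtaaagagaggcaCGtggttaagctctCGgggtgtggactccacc
These runs hold 28, 6 and 4 CpG. A motif or CpG count describes the window only.

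To ask whether the labelled cell type was seen in the libraries, T cell markers were examined alongside those of other types. CD3D, a CD3 chain, was measured at 61.8 to 139.7 FPKM, while 7 of 8 T cell markers had a mean under 1 FPKM. CD247, the CD3 zeta chain, and LCK, the kinase that CD4 carries, were at 0 in all libraries. The highest single value was 0.146 FPKM for CD3E, 1.03 for CD3G, 0.674 for the kinase ZAP70, 0.796 for the adaptor LAT and 3.01 for the receptor constant gene TRAC. TRAC was above 0 in 11 libraries, with means of 0.477 and 0.265 FPKM in NC+DMSO and PTPN21+DMSO and of 1.42 and 1.81 FPKM in NC+VCR and PTPN21+VCR. Most defining markers of the labelled T lymphocyte were thus at or near 0, with CD3D and, at a low level, TRAC as exceptions. The values of the surface markers therefore describe libraries labelled Jurkat in which the label was not borne out by most T cell markers, and no authentication of the cells was found in the sources used here. Of 3 erythroid markers, 2 were measured: HBA1, an alpha globin, at 49.4 to 190.1 FPKM and the heme enzyme ALAS2 at 3.59 to 12.6, while the beta globin HBB did not exceed 1.66. HBA1 can share reads with its near copy HBA2 (22.7 to 114.4 FPKM), so the value of the single copy is uncertain. Of 6 myeloid markers, CD33 (20.5 to 44.4 FPKM), LYZ (9.08 to 17.0) and ITGAM (0.948 to 3.39) were measured, and CD14 and MPO were near 0. The epithelial keratins KRT8 (236.4 to 1186 FPKM) and KRT18 (91.9 to 436.5) and the adhesion gene EPCAM (58.3 to 122.7) were high, while CDH1 had a mean of 0.294. None of 6 B cell markers reached a mean of 1 FPKM, and of 5 NK cell markers only NKG7 did (0.263 to 4.51 FPKM).

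**Figure D2:**
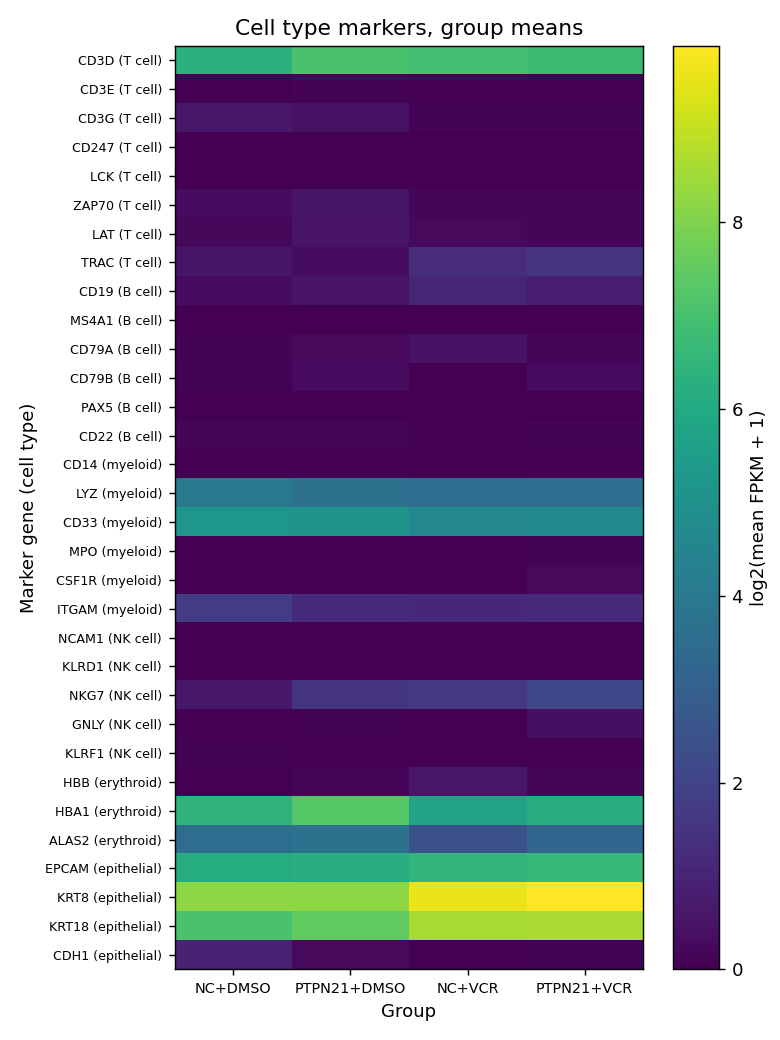
Mean of each cell type marker gene (rows, with the type in brackets) in each group of 3 libraries (columns), coloured by log2(mean FPKM + 1). CD3D is the only bright row among the 8 T cell markers, while HBA1, EPCAM, KRT8 and KRT18 are bright in all 4 groups. CD33, LYZ and ALAS2 are dimmer.

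Genes that every cell uses were also looked at. In 26 such genes, subunits of the 20S proteasome and of RNA polymerase II, no value was 0 in any library and all 26 had a mean of at least 1 FPKM. This list was chosen after the values of the markers had been seen. Values above 0 could be foreseen for such genes, so they cannot tell why a lineage gene was at 0. The cause of the zeros was not tested.

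Other genes of the T cell surface repeated the split. Of 15 further T lineage surface genes, 4 had a mean of at least 1 FPKM and 8 were at 0 in all libraries, CD1A to CD1E, the coreceptor chains CD8A and CD8B, and THY1. The 4 measured were PTPRC (the CD45 phosphatase, 8.07 to 33.1 FPKM), SPN (the CD43 sialoglycoprotein, 4.21 to 13.3), CD44 (the hyaluronan receptor, 0.0516 to 33.3) and the chemokine receptor CCR7 (1.21 to 4.84). None of 14 costimulatory and inhibitory receptors related to CD27 and CD28 reached a mean of 1 FPKM, and 8 of them, CTLA4 and ICOS included, were at 0 throughout. By contrast, 16 of 22 surface genes shared by leukocytes in general were measured. Of 24 ligands and partners of the 10 markers, 14 were measured. Of all protein-coding genes 51.9% had a mean under 1 FPKM, so the measured share of partners was near that of genes in general. CD48, CD58 and CD59 stand in both lists. Among partners, the CD2 ligand CD58 (12.05 to 24.3 FPKM), the CD28 adaptor GRAP2 (16.3 to 88.8) and the exchange factor VAV1 (32.4 to 46.1) were measured where the receptors themselves were not, and LCK, the CD6 ligand ALCAM and the CD28 ligand CD86 were at 0. Of 17 transcription factors of the T lineage, 7 were measured, also near the share of protein-coding genes in general. Among them was MYB at 64.4 to 281.7 FPKM, while GATA3, BCL11B, RUNX3 and KLF2 did not exceed 0.184 FPKM.

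**Figure D3:**
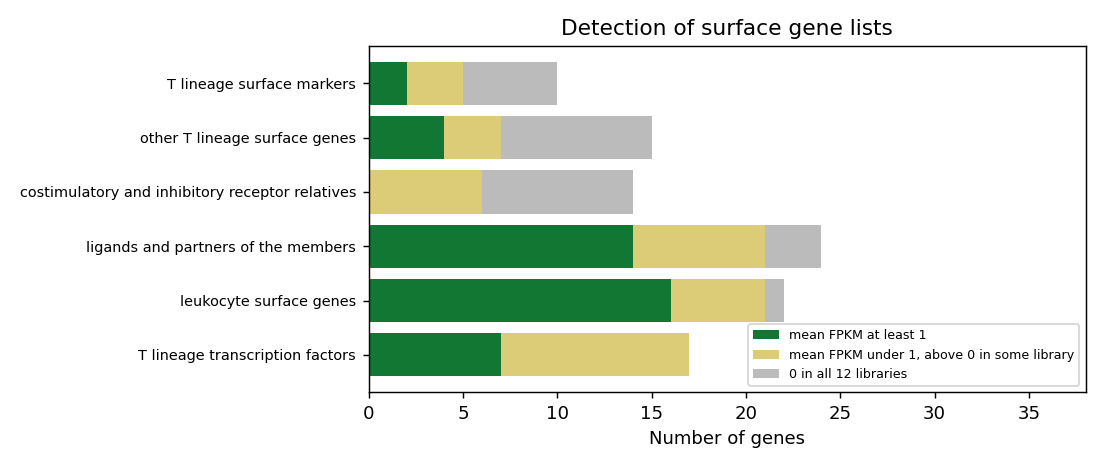
Number of genes (x axis) in the T lineage surface markers and 5 related gene lists (y axis), divided into genes with a mean of at least 1 FPKM, genes under 1 FPKM that were above 0 in some library, and genes at 0 in all 12 libraries. Measured genes make up 2 of 10 markers, 0 of 14 costimulatory and inhibitory relatives and 16 of 22 leukocyte surface genes.

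Levels of CD69 differed between groups. It was 19.6, 19.5 and 16.9 FPKM in NC+DMSO (18.7 ± 1.54, SD, n = 3) and 11.1, 16.0 and 11.97 in PTPN21+DMSO (13.0 ± 2.61, SD, n = 3). After VCR it was 13.96, 21.4 and 20.8 FPKM in NC+VCR (18.7 ± 4.11, SD, n = 3) and 22.6, 25.2 and 20.8 in PTPN21+VCR (22.9 ± 2.24, SD, n = 3). The order of the means was thus PTPN21+DMSO, NC+DMSO, NC+VCR and PTPN21+VCR. PTPN21+DMSO did not overlap NC+DMSO or PTPN21+VCR, and the other neighbours in that order overlapped.

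CD99 followed another order. It was 24.8, 22.5 and 23.9 FPKM in NC+DMSO (23.7 ± 1.18, SD, n = 3) and 17.3, 19.5 and 19.9 in PTPN21+DMSO (18.9 ± 1.44, SD, n = 3). After VCR it was 20.1, 11.8 and 21.99 FPKM in NC+VCR (17.96 ± 5.40, SD, n = 3) and 14.3, 15.5 and 14.9 in PTPN21+VCR (14.9 ± 0.623, SD, n = 3). NC+DMSO was above the other 3 groups in every library, while NC+VCR replicate 2 lay apart from its 2 partners and carried that group's range across those of PTPN21+DMSO and PTPN21+VCR.

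**Figure D4:**
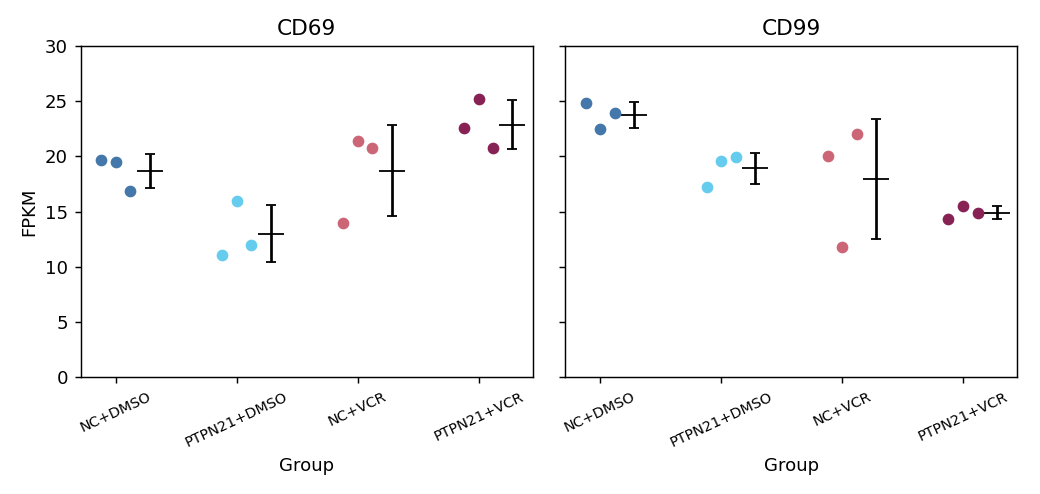
FPKM of CD69 and CD99 (y axis) in the 4 groups (x axis), with 1 point per library and, beside them, the mean and SD of the 3 libraries. CD69 is lowest in PTPN21+DMSO and highest in PTPN21+VCR, and CD99 is highest in NC+DMSO, with 1 NC+VCR library at 11.8 FPKM.

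In PTPN21 cells, CD69 was higher with VCR and CD99 was not shown to change. On the log2(FPKM + 1) scale, which understates changes of low genes, CD69 was higher in PTPN21+VCR than in PTPN21+DMSO by 0.78 (standard error 0.189, 95% interval 0.37 to 1.19, adjusted p = 0.00911 by limma). All 3 PTPN21+VCR libraries were above all 3 PTPN21+DMSO libraries, and 93.0% of the genes tested had a lower difference. CD69 was the only call among the 2 tested markers, where 28.5% of the 11591 genes passed, 9.22% as higher and 19.3% as lower. The median of all genes was -0.17, so CD69 lay 0.95 above it. CD99 differed by -0.32 (interval -0.74 to 0.10, adjusted p = 0.243 by limma), although its 3 PTPN21+VCR libraries were all below the PTPN21+DMSO libraries, and was at -0.15 with median ratio scaling and -0.12 after quantile normalization. Groups did not overlap for either marker, as for 50.4% of all genes, 17% with the VCR group higher and 33.3% with it lower. In the same comparison the summed level of the 8 T cell markers was 116.9 to 142.2 FPKM in PTPN21+DMSO and 108.3 to 113.3 in PTPN21+VCR, that of the 3 erythroid markers 145.7 to 201.8 and 69.4 to 83.99, and that of the 4 epithelial markers 510.2 to 579.4 and 1203 to 1676. Single genes made up most of the first and second sums. CD3D was 115.7 to 139.7 and 107.2 to 110.9 FPKM and did not pass, while the mean of TRAC went from 0.265 to 1.81. HBA1 was 133.2 to 190.1 and 60.1 to 75.4 FPKM. KRT8, the largest part of the third sum, was 273.0 to 318.7 and 710.4 to 1186 FPKM. The mean of KRT18 went from 176.1 to 398.3 FPKM. That of EPCAM, which did not pass, went from 72.3 to 97.7, and that of CDH1 from 0.201 to 0.0424. The part of these cell type markers in the CD69 difference was not tested. In these bulk libraries, more cells with CD69 and more CD69 RNA per cell cannot be told apart.

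In control cells, neither marker passed the test after VCR. CD69 differed between NC+VCR and NC+DMSO by -0.02 (interval -0.43 to 0.39, adjusted p = 0.951 by limma), and its groups overlapped. That sign turned with the scaling of libraries, to 0.36 with median ratio scaling and 0.30 after quantile normalization, both short of the threshold. CD99 was lower by -0.43 on the fitted scale (interval -0.85 to -0.00, unadjusted p = 0.0483, adjusted p = 0.105 by limma). CD99 passed without NC+VCR replicate 3, at -0.59 (adjusted p = 0.0416 by limma), and was at -0.17 (adjusted p = 0.375 by limma) without NC+VCR replicate 2, so 1 library decided the value. It also shrank to -0.04 (adjusted p = 0.883 by limma) with median ratio scaling and to -0.13 after quantile normalization. Of all genes, 36.2% passed in this comparison, 7.91% as higher and 28.3% as lower, with a median of -0.36. The NC+VCR libraries lay below the NC+DMSO libraries for CD99 without overlap, as for 33.9% of all genes, and groups did not overlap in either direction for 44.1%. An unadjusted p under 0.05 was found for 1 of 2 markers and for 46.4% of all genes.

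Without VCR, PTPN21 cells had lower values of both markers than control cells, but neither passed. CD69 was at -0.50 (interval -0.91 to -0.09, unadjusted p = 0.0206, adjusted p = 0.123 by limma) and CD99 at -0.31 (interval -0.74 to 0.11, adjusted p = 0.335 by limma). Over the alternative settings CD69 ranged from -0.66 to -0.31 (adjusted p 0.0572 to 0.378 by limma) and CD99 from -0.46 to -0.12, with the largest differences under TPM scaling and the smallest with median ratio scaling. All PTPN21+DMSO libraries were below all NC+DMSO libraries for both genes, as they were for 21.9% of all genes, out of 33.4% without overlap in either direction. In total 6.34% of genes passed, 2.65% as higher and 3.69% as lower, with a median of -0.14. Under VCR, PTPN21+VCR and NC+VCR overlapped for both markers, where 22.5% of all genes did not. CD69 differed by 0.30 (interval -0.11 to 0.71, adjusted p = 0.459 by limma) and CD99 by -0.21 (interval -0.63 to 0.21, adjusted p = 0.640 by limma), where 1.82% of genes passed. An unadjusted p under 0.05 was found for 0 of 2 markers and for 17.1% of all genes. CD69 moved to 0.11 (adjusted p = 0.823 by limma) without NC+VCR replicate 1 and to 0.40 without NC+VCR replicate 2. CD99 moved to -0.47 (adjusted p = 0.115 by limma) without NC+VCR replicate 2 and to -0.05 without NC+VCR replicate 3.

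The response of CD69 to VCR was not shown to differ between PTPN21 and control cells. The interaction was 0.80 (standard error 0.267, interval 0.22 to 1.38), with an unadjusted p of 0.0111 and an adjusted p of 0.234 by limma, in a test that 0.129% of genes passed. For CD99 it was 0.11 (interval -0.49 to 0.70, adjusted p = 0.891 by limma), a sign that turned to -0.10 under median ratio scaling and to -0.15 without NC+VCR replicate 2. These 5 comparisons share libraries and are not independent of each other.

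**Figure D5:**
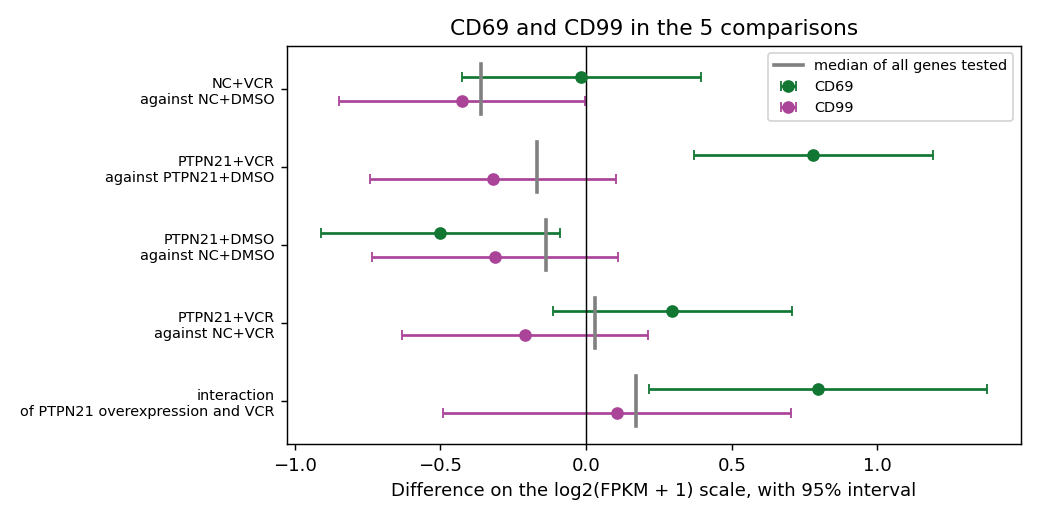
Difference of CD69 and CD99 on the log2(FPKM + 1) scale (x axis) in the 5 comparisons (y axis), with 95% intervals from limma and a grey bar at the median of all 11591 genes. The interval of CD69 lies above 0 and above the bar in PTPN21+VCR against PTPN21+DMSO, the comparison in which its adjusted p passed, and in the interaction, in which it did not pass.

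Around CD69 and CD99, several surface genes of the lists moved further with VCR. CD44 was 0.174 to 0.913 FPKM in NC+DMSO and 14.5 to 30.3 in NC+VCR, and 0.0516 to 0.274 in PTPN21+DMSO and 24.5 to 33.3 in PTPN21+VCR. It rose by 3.84 in control cells (standard error 0.288, adjusted p = 3.79e-06 by limma) and by 4.73 in PTPN21 cells (adjusted p = 1.22e-06 by limma), on the log2(FPKM + 1) scale. With a pseudocount of 0.1 these values were 5.41 and 7.12, since its DMSO values were low. Of the 4 measured T lineage surface genes outside the 10 markers, 2 rose and 1 fell in control cells (median 0.57) and 3 rose and 1 fell in PTPN21 cells (median 1.16), where all genes had medians of -0.36 and -0.17 and 36.2% and 28.5% were called. CCR7 rose by 0.66 and 1.06, and SPN fell by 1.00 and 0.67. PTPRC rose in PTPN21 cells by 1.26, from 8.07 to 14.2 FPKM up to 23.8 to 33.1 FPKM. In PTPN21+DMSO against NC+DMSO, PTPRC was the only call of these 4, at -0.88 (adjusted p = 0.0419 by limma), where 3.69% of all genes were called lower. That call was kept in 4 of 10 alternative settings and in 2 of 12 fits that each left out a library. None of the 4 passed between PTPN21+VCR and NC+VCR (0 with an unadjusted p under 0.05 by limma) or in the interaction (2 under that p).

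Among 16 measured leukocyte surface genes, 1 rose and 5 fell in control cells (median -0.27) and 3 rose and 2 fell in PTPN21 cells (median 0.06). Those shares were near the 36.2% and 28.5% of all genes called, whose medians were -0.36 and -0.17. The tetraspanin CD53 rose by 1.25 and 1.55, from 28.2 to 35.1 FPKM over the DMSO libraries to 67.0 to 105.0 over the VCR libraries. The tetraspanin CD37 fell by 1.46 and 0.97. The sialomucin CD164 fell by 1.14 and the adhesion ligand ICAM2 by 1.08 in control cells, and ICAM3, another adhesion ligand, fell by 1.07 in control cells (adjusted p = 0.00269 by limma) and by 1.58 in PTPN21 cells. CD164 and the integrin chain ITGB1 were also lower in PTPN21+DMSO than in NC+DMSO, at -0.79 and -0.65. In that comparison 3.69% of all genes were called lower. None of the 16 passed between the VCR groups or in the interaction by limma, with 6 and 1 under an unadjusted p of 0.05.

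Ligands and partners of the markers moved in both directions. In control cells 2 of 14 fell (median -0.37), the adaptors GRAP2 by 1.73 and GRB2 by 0.73, both of which bind CD28, while 28.3% of all genes were called lower and their median was -0.36. In PTPN21 cells GRAP2 fell by 1.49 and the CD2-binding protein CD2BP2 by 1.13, while TRAF5, a signalling adaptor of CD27, rose by 1.36 and CD58 by 0.58 (median -0.35, against -0.17 over all genes, of which 28.5% were called). No partner passed in the other 3 comparisons by limma, with 2, 3 and 2 under an unadjusted p of 0.05 in PTPN21+DMSO against NC+DMSO, PTPN21+VCR against NC+VCR and the interaction. The receptors CD2, CD27 and CD28 themselves gave no value to set beside these.

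The measured T lineage transcription factors fell or did not pass. With VCR, 5 of 7 fell in control cells (median -0.82), led by RUNX1 (-1.46), ZBTB7B (-1.38), the Ikaros factor IKZF1 (-1.10) and TCF3 (-0.82), and 3 of 7 fell in PTPN21 cells (median -0.45), IKZF1 (-1.45), RUNX1 (-1.05) and TCF3 (-1.01). Of all genes, 28.3% and 19.3% were called lower, with medians of -0.36 and -0.17. TCF12 (-1.24) and MYB (-0.96) were lower in PTPN21+DMSO than in NC+DMSO, where 3.69% of all genes were called lower. MYB was 184.9 to 281.7 FPKM in NC+DMSO and 94.97 to 121.6 in PTPN21+DMSO. None passed between the VCR groups or in the interaction by limma, with 2 under an unadjusted p of 0.05 in each.

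Cell type markers moved in the same comparisons, in which many genes were called. Of all genes, 7.91% were called higher and 28.3% lower with VCR in control cells (median -0.36). In PTPN21 cells the shares were 9.22% and 19.3% (median -0.17). Between the DMSO groups they were 2.65% and 3.69% (median -0.14), and 1.82% were called between the VCR groups. CD3D, of the T cell list, was higher by 0.64 in NC+VCR and by 0.72 in PTPN21+DMSO, each against NC+DMSO. With VCR both measured erythroid markers fell in control cells, ALAS2 (-1.10) and HBA1 (-0.65), and HBA1 (-1.12) fell in PTPN21 cells. HBA1 was higher in PTPN21+DMSO than in NC+DMSO by 0.82 and ALAS2 higher in PTPN21+VCR than in NC+VCR by 0.79. NKG7 rose by 0.98 and CD33 fell by 0.57 with VCR in control cells. KRT8 and KRT18 rose with VCR by 1.40 and 1.56 in control cells and by 1.66 and 1.17 in PTPN21 cells. The summed epithelial level was 388.4 to 589.0 FPKM in NC+DMSO and 1153 to 1359 in NC+VCR, and the summed erythroid level 91.8 to 98.2 and 53.01 to 64.2. Their part in the surface gene changes was not tested.

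Several of these calls of list genes ended when the processing or the libraries changed, with the direction kept. For VCR in control cells, the calls of ICAM2, TCF3 and CD33 were kept in 6 of 10 settings, GRB2 in 5 of 10, IKZF1 in 5 of 9, NKG7 in 6 of 9, CCR7 and ZBTB7B in 8 of 9 and HBA1 in 9 of 10. For VCR in PTPN21 cells, SPN was kept in 5 of 10 settings and RUNX1 in 8 of 9, while CD58 was kept in 8, CD37 in 10 and IKZF1 in 11 of 12 fits that left out a library. Between the DMSO groups, TCF12 was kept in 3 of 10 settings, ITGB1 in 5, CD164 in 6, CD3D in 7, MYB in 8 and HBA1 in 9. ALAS2 between the VCR groups was kept in 5 of 10 settings and in 3 of 12 fits that left out a library. CD44, CD53, GRAP2, KRT8 and KRT18 kept both of their VCR calls in all settings and left-out fits.

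The genes most like CD69 over the 12 libraries were the clamp loader subunit RFC3, the ribosome assembly factor SBDS and UEVLD. Their root mean square difference from CD69, after each gene was centred on its own mean, was 0.11, 0.14 and 0.14 on the log2(FPKM + 1) scale, against a standard deviation of CD69 itself of 0.35. For CD99 they included SORD and the phosphatase PPM1F, at 0.11 and 0.12 against 0.31. These are descriptions over libraries that share the same 4 groups.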

How the data were processed

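A single table of FPKM values for the 12 libraries was deposited; an external company had made it for the authors. The submitters' processing notes name fastp, Bowtie2 and mm10, a mouse build, while the identifiers are human Ensembl genes; the counter, annotation, filters and strand setting are not given in the sources used here. Of 60671 genes, 58453 (96.3%) had an entry in GENCODE release 29 (GRCh38), used for positions. Every value column was matched to a sample by its title. Read depth is not stated, and many depths were tried on 8708 single-exon genes over 500 bases. At the best depth, between 40.9% and 53.0% of low values lay within 0.1 of a whole step. Chance gives 20% at a fixed depth and more at the best of many. Fragments were thus not recovered, and no count test or detection limit was used. Depth limits mainly the low values.

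Values were taken as log2(FPKM + 1), and the 11591 genes averaging at least 1 FPKM were tested with limma 3.58.1 in R 4.3.3, with an intensity trend, in one model of the 4 group means. P-values were two-sided and adjusted by Benjamini-Hochberg over all genes tested, with a threshold of 0.05. Of the 10 markers 2 were tested. The fit was tested on simulated data. Alternatives were another pseudocount (0.1), 2 other filters, 3 other scalings, no trend, robust moderation, a replicate block, a fit on the 2 groups compared alone and leaving out each library.

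The members and lists were chosen with earlier results of these data known, and the list of genes used by every cell after the values were seen. Every marker is named, as are at most the 4 largest calls per list and comparison, and the 3 genes with the smallest root mean square difference from each tested marker. The call of ICAM3 in control cells, next in size after those 4, is named in addition. It was not followed over the other settings. Genes named only for their level were chosen after their values were seen. Some genes that these rules take in are not reported here and are left out of the list counts. Promoter sequences came from RefSeq (GRCh38.p14). Python 3.11.15 with numpy 2.4.6, pandas 2.3.3 and matplotlib 3.10.9 was used for tables and figures.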

Additional observations from a re-analysis of the deposited data

How the results depend on the processing

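The rise of CD69 in PTPN21+VCR against PTPN21+DMSO passed in 10 of 10 alternative settings (0.78 to 0.96 on the log2 scale, adjusted p 0.00357 to 0.0218 by limma) and in all 12 fits that left out a library (0.68 to 0.93, adjusted p 0.00428 to 0.0402). Settings that changed only the filter, the moderation, the block or the groups fitted left the difference at 0.78. So did the fits without an NC library, since those groups are not in this comparison. Without a library of the compared groups, adjusted p was 0.00773 to 0.0402 by limma. CD69 in NC+VCR against NC+DMSO turned positive under median ratio scaling (0.36), quantile normalization (0.30) and without NC+DMSO replicate 1 (0.02), NC+DMSO replicate 2 (0.01) or NC+VCR replicate 1 (0.17), in a range of -0.12 to 0.17 over the left-out libraries. The CD99 interaction turned to -0.10 under median ratio scaling and ranged from -0.15 (without NC+VCR replicate 2) to 0.27. The count of markers called in NC+VCR against NC+DMSO was 0 to 1 over the left-out libraries (1 without NC+VCR replicate 3), and the other comparisons kept their count of markers. Of the named genes of the lists, 376 of 442 values under other settings and 456 of 540 without a library passed, and none reversed. The 540 include fits without a library from outside the comparison, which leave its difference unchanged. The cause of the changes was not tested.

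The number of all genes called moved more. For VCR in control cells the count was 4192, fell to 2674 with only the 2 groups compared, and was 3224 to 4024 without a library. For VCR in PTPN21 cells it was 2353 to 3619 without a library. Between the DMSO groups (735 calls) leaving out the trend gave 321, no filter 177 and only the 2 groups 40, and leaving out a library gave 67 (PTPN21+DMSO replicate 1) up to 1345 (NC+DMSO replicate 2). Between the VCR groups (211 calls) a mean of at least 5 FPKM gave 344, median ratio scaling 130, no filter 118, only the 2 groups 117 and a fit that ignored the trend 72, and leaving out a library gave 43 (PTPN21+VCR replicate 2) up to 354 (NC+DMSO replicate 3). For the interaction (15) either other filter gave 8 and no trend 9, and leaving out a library gave 7 (NC+DMSO replicate 1) up to 30 (NC+DMSO replicate 2). The medians of all genes, -0.36 and -0.17 for VCR in control and PTPN21 cells, became -0.03 and -0.02 under median ratio scaling, and the share of calls that were higher went from 21.9% to 56.5% and from 32.3% to 51.2%. In PTPN21+DMSO against NC+DMSO that share was 41.8%, 76.0% under median ratio scaling, 54.5% under quantile normalization and 21.0% under TPM scaling. In PTPN21+VCR against NC+VCR it was 55.0%, and 43.8% under median ratio scaling. For VCR under quantile normalization it was 52.5% and 51.6%, and for the interaction 20% and, under TPM scaling, 36.4%.

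The replicate numbers did not pair the libraries: in 18 same-numbered pairs, deviations from group means correlated at -0.145 to 0.0583. With the number as a replicate block, CD69 in PTPN21+VCR against PTPN21+DMSO stayed at 0.78 (adjusted p = 0.0098 by limma), and the block gave 242 calls in PTPN21+DMSO against NC+DMSO, 74 in PTPN21+VCR against NC+VCR and 8 for the interaction.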

Other observations

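The nearest protein-coding genes on either side of the 8 markers with a mean under 1 FPKM were examined after the values were seen. Of 16 such neighbours, 5 had a mean of at least 1 FPKM, where 51.9% of all protein-coding genes had a mean under 1. The 16 include CD5 and CD6, each counted as a neighbour of the other and already known to be at 0. LTBR next to CD27, the lymphotoxin beta receptor, had a mean of 12.3 FPKM, the kinase CSNK1D next to CD7 7.78, VPS37C next to CD5 4.03, PTGFRN next to CD2 2.16 and VAMP1 next to CD27 1.30. TAPBPL, which overlaps CD27 on the same strand and was not counted as a neighbour, was at 0 in all libraries. Measured neighbours were thus found at CD2, CD5, CD7 and CD27. The 2 neighbours of CD69, CLECL1 and KLRF1, did not exceed 0.0636 and 0.106 FPKM, although CD69 had a mean of 18.3. CD6 lay between SLC15A3, at 0 in all libraries, and CD5.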
